A study of Mus musculus with 24 samples.

Results

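MicroRNAs (miRs) of the neonatal mouse hippocampus were compared between pups that received 5 mg/kg morphine plus stress and untreated littermates. The comparison used every miR array labelled with the 5 mg/kg dose and every control miR array, 3 of each, so 6 of the 24 arrays of the series, and it covered all 1412 mouse probe sets on them, 722 for mature miRs and 690 for hairpin precursors. All pups were labelled as male C57BL/6 mice and were killed at postnatal day 9 (P9), and both hippocampi of 1 pup went onto 1 array. Controls (Con) were untreated and handled as little as possible. The MS5 pups were treated from P5. At 2 sessions a day they received an injection of 5 mg/kg morphine and then breathed nitrogen for 1 min and oxygen for 5 min, and they spent the day isolated from the dam in a warmer. The MS2 pups were treated the same way with 2 mg/kg. Their arrays served to set the doses side by side. They also entered the limma fit, in which all 9 miR arrays share 1 estimate of spread. Morphine, injection, apnea and separation came together in each treated pup and cannot be told apart in any difference from controls. Litter was not given for single pups.

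A miR is cut from a hairpin-shaped precursor, and either arm of the hairpin (5p or 3p, with the rarer arm once marked by a star) can become the mature strand. The mature strand guides a silencing complex to messenger RNAs that pair with its seed, bases 2 to 8 from its 5′ end, and so lowers the output of many genes at once. In the brain, miR-124 is the dominant miR of neurons, miR-34b, miR-34c and miR-449 are known from cells that carry motile cilia, and miR-204 is abundant in the choroid plexus, the epithelium that makes cerebrospinal fluid.

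The labelled tissue was checked on markers. miR-124 stood between 14.17 and 14.36 (log2) on the 3 control arrays and between 14.28 and 14.32 on the 3 MS5 arrays, and its group difference was 0.02. The 13 mature probe sets for miRs of liver, heart, skeletal muscle and pancreas had control means of 3.88 to 5.1, beside array medians of 4.17 to 4.21. On each array 271 to 281 probe sets reached a level of 6. One library of the same series went against its label: on the mRNA array numbered MS5 replicate 9, Xist, the RNA that silences an X chromosome in females, stood at 11.34 against at most 6.08 on the 14 other mRNA arrays, and the Y-linked Ddx3y stood at 6.24 against at least 11.01. The labels do not say whether equal numbers on mRNA and miR arrays mean the same pup, so results that turn on the MS5 miR array numbered 9 are given with and without it. In bulk tissue, fewer cells of a type and less RNA per cell cannot be told apart.

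The sequences of the miRs that differed, taken from RefSeq on mouse build GRCm38.p6, show which of them share a seed and so could pair with the same messages. Capitals mark the seed. The first set holds the miR-34 and miR-449 family, whose 5p arms have 1 seed in common:
mmu-miR-34a-5p: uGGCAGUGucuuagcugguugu
mmu-miR-34b-5p: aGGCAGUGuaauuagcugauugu
mmu-miR-449a-5p: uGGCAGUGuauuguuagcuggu
mmu-miR-449c-5p: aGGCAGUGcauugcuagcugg
The 3p arms of miR-34b and miR-34c share a second seed:
mmu-miR-34b-3p: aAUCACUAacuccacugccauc
mmu-miR-34c-3p: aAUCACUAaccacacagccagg
The Mir34b and Mir34c hairpins lie beside each other on the minus strand, at chr9:51103562-51103645 and chr9:51103034-51103110. Mir34a is at chr4:150068454-150068555 and Mir449a at chr13:113037534-113037624, both on the plus strand.

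The second set holds miR-204 with its relative miR-211, which has the same base at 21 of 22 positions, and the miRs whose hairpins lie within the span of Htr2c, the serotonin 2C receptor gene:
mmu-miR-204-5p: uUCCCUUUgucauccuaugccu
mmu-miR-211-5p: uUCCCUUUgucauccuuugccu
mmu-miR-448-5p: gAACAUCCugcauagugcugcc
mmu-miR-448-3p: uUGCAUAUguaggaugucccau
mmu-miR-764-5p: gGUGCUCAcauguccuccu
mmu-miR-764-3p: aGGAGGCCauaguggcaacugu
Mir204 lies at chr19:22750605-22750672 within the span of Trpm3, a cation channel gene. Mir448 and Mir764 lie at chrX:147158210-147158321 and chrX:147002259-147002366, 155843 bases apart, all on the plus strand. The files name the miR-34a, miR-34c, miR-449a, miR-204 and miR-448 probe sets without an arm. Both arms of miR-448 are shown, and the arm of miR-204 shown is the one that shares its seed with miR-211.

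The third set holds miR-574-3p, miR-455 and miR-214, which were lower on all 3 MS5 arrays than on all 3 control arrays, and miR-153 and miR-1983, which were higher. The files name no arm for miR-455, miR-214 and miR-153, so both arms of these are shown without choosing between them:
mmu-miR-574-3p: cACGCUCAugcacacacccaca
mmu-miR-455-5p: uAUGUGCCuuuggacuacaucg
mmu-miR-455-3p: gCAGUCCAcgggcauauacac
mmu-miR-214-5p: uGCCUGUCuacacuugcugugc
mmu-miR-214-3p: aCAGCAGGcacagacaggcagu
mmu-miR-153-5p: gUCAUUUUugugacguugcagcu
mmu-miR-153-3p: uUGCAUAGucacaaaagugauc
mmu-miR-1983: cUCACCUGgagcauguuuucu
No seed is shared between these 8 sequences or between them and the sets above. The seeds of miR-153-3p and miR-448-3p have their first 6 bases in common. The hairpins of miR-574 and miR-214 are at chr5:64970318-64970395 and chr1:162223368-162223477, the arms of miR-455 at chr4:63256867-63256924 within the span of the collagen gene Col27a1, and the hairpin of miR-153 at chr12:117250817-117250885 within the span of Ptprn2.

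Across all probe sets, 14 of 1412 (0.992%) passed the threshold of the study's methods between MS5 and controls, a fold change over 1.5 together with a raw p below 0.05 in a limma fit of the 9 miR arrays. All 14 were among the 722 mature probe sets (1.94%), and 10 of them were among the 260 mature probe sets with a mean level of at least 6 (3.85%). Of the 14, 3 were higher (0.212%) and 11 lower (0.779%) in MS5. "Rose" and "fell" below mean past this threshold. After Benjamini-Hochberg adjustment over the 1412 probe sets limma called 0, while 120 (8.5%) had an unadjusted p under 0.05, 60 (4.25%) in each direction. The MS5 and control values did not overlap at 173 probe sets (12.3%), with MS5 on top at 92 (6.52%) and underneath at 81 (5.74%). No exact permutation test of 3 arrays against 3 can give a p under 0.1. The median difference over all probe sets was 0.00 (log2). At the edge of the threshold, miR-764-5p was just inside with a 1.53-fold difference and the star strand of miR-31 just outside with 1.49-fold.

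**Figure D1:**
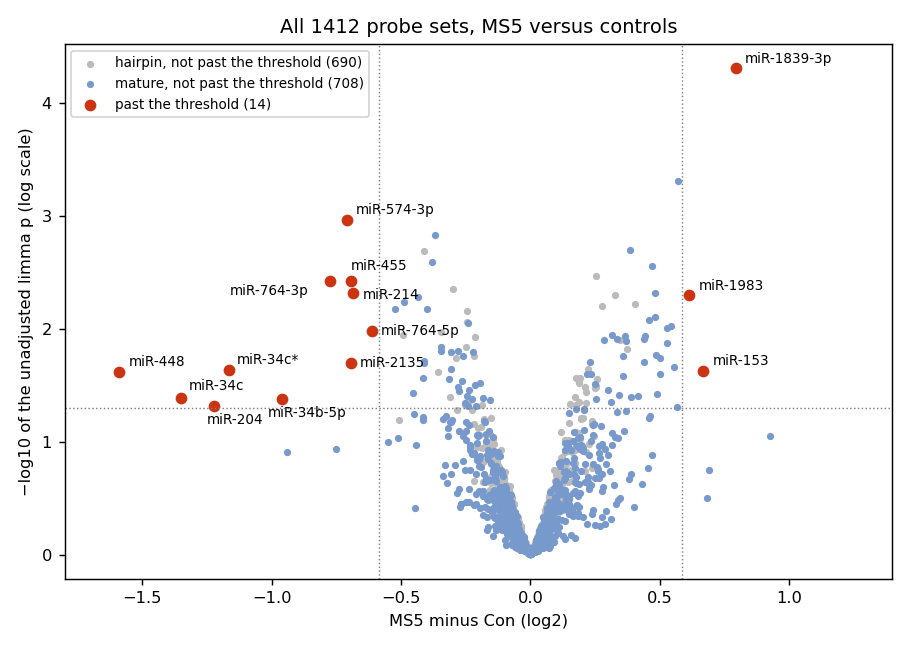
Each point is 1 of the 1412 probe sets, with the MS5 minus control difference (log2) on the horizontal axis and the negative log10 of the unadjusted limma p on the vertical axis, and dotted lines mark 1.5-fold and a p of 0.05. The 14 red points past both lines are mature miRs, 11 to the left and 3 to the right. miR-448 has the largest fall, and miR-1839-3p stands highest.

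Most of the 14 showed 1 of 2 patterns. On 2 of the 3 MS5 arrays, replicates 12 and 14, miR-448, miR-204 and the miR-34 members were far below every control array, while on MS5 replicate 9 they lay within the control range. The other pattern was a smaller shift seen on all 3 MS5 arrays, down for miR-574-3p, miR-455, miR-214 and both arms of miR-764 and up for miR-1839-3p, miR-153 and miR-1983. At miR-574-3p, miR-455 and both arms of miR-764 replicate 9 shifted least, so the 2 patterns are not sharply separate. miR-2135 followed neither. Of the 11 miRs that fell, MS5 replicate 12 lay below all control arrays at 11, replicate 14 at 10 and replicate 9 at 6. Over all 1412 probe sets these arrays lay below all control arrays at 27%, 23.4% and 25.1%. The 11 were chosen by the means of the same arrays, so high counts among them follow in part from that choice. Setting them beside these shares is therefore no test. On the mRNA arrays with the same numbers, Avp, and Oxt and Six3 described below, had the split of the first pattern with the opposite sign. They belong to a list of 12 markers of hypothalamus and thalamus, whose other members did not have this split. The list medians were -0.07, 0.16 and 0.17 on numbers 9, 12 and 14. The summed intensity of the meningeal markers described below had the split with the same sign, though that sum leans on its bright member Dcn. Avp, the vasopressin gene, was at 8.18, 7.06 and 6.32 (log2) in controls and at 7.21, 12.47 and 10.79 on MS5 numbers 9, 12 and 14, so it was within the control range on number 9 and far above it on the others. The part of these tissues in the miR differences was not tested.

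**Figure D2:**
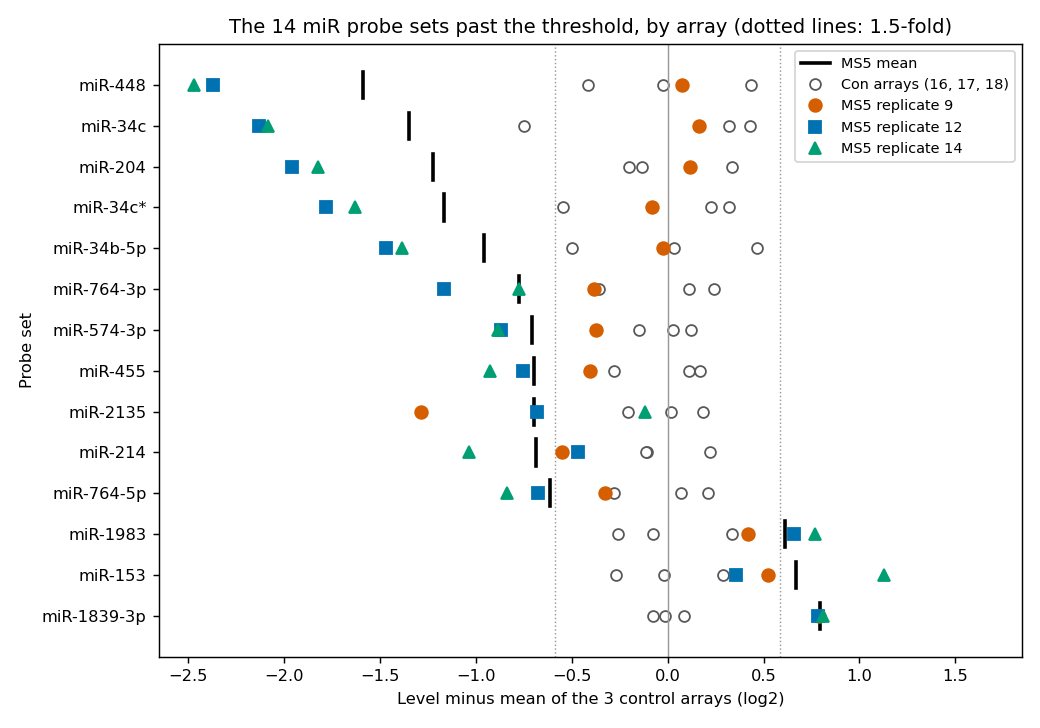
Level of the 14 probe sets on each array minus the mean of the 3 control arrays (log2). Open circles are control arrays, coloured symbols the 3 MS5 arrays and black bars the MS5 means. For the top 5 rows replicates 12 and 14 sit apart on the left and replicate 9 sits among the controls. For miR-1839-3p the 3 MS5 symbols overlie each other near 0.79.

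The cilia-linked miR-34 and miR-449 family held 3 of the miRs that fell, as did the list of Htr2c miRs and that of mesenchymal miRs. It has 8 mature probe sets, of which 3 fell, 0 rose and the other 5 did not pass, with a median difference of -0.85 (log2) beside 0.00 over all mature probe sets, of which 1.52% fell. miR-34c stood at 10.91, 9.84 and 11.01 (log2) on control replicates 16, 17 and 18 and at 10.75, 8.45 and 8.50 on MS5 replicates 9, 12 and 14. The groups overlapped, because MS5 replicate 9 lay above control replicate 17, while the other MS5 arrays were more than 1 log2 unit below every control. The fold change of miR-34c (log2) was -1.35 ± 0.57 (SE; limma adjusted p = 0.570; exact permutation p = 0.2).

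The opposite arm of the same hairpin, miR-34c*, gave the same picture. It was at 9.28, 8.51 and 9.37 on the control arrays and at 8.98, 7.27 and 7.42 on the MS5 arrays, with a fold change (log2) of -1.16 ± 0.43 (SE; limma adjusted p = 0.509). miR-34b-5p, which carries the seed of the family and lies beside miR-34c, was at 6.22, 5.68 and 6.65 in controls and at 6.16, 4.72 and 4.80 in MS5, a fold change of -0.96 ± 0.41 (SE; limma adjusted p = 0.570). Again replicate 9 was inside the control range and the other MS5 arrays were below it.

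The 5 members that did not pass spanned a range. miR-449a had 8.74, 8.41 and 9.40 in controls and 9.07, 7.22 and 7.44 in MS5, a difference of -0.94 (limma adjusted p = 0.727). For miR-34b-3p, with 7.47, 7.01 and 7.51 against 7.61, 6.12 and 5.99, the difference was -0.75 (limma adjusted p = 0.727). Both have the same split as miR-34c, with replicate 9 within or above the controls. miR-34a, the member that p53 is best known to induce, was at 7.27, 6.47 and 7.20 against 7.0, 6.36 and 5.93, and differed by -0.55 (limma adjusted p = 0.722). miR-449c differed by -0.42 and miR-449b by 0.03, with all of their values between 4.27 and 5.03, near the array medians. Of the hairpin probe sets, that of mir-34c differed by -0.51 (limma adjusted p = 0.644), from 4.98, 4.61 and 5.17 to 4.92, 4.00 and 4.31, and that of mir-34b by -0.00, at 3.92 to 4.07 on all of these arrays.

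**Figure D3:**
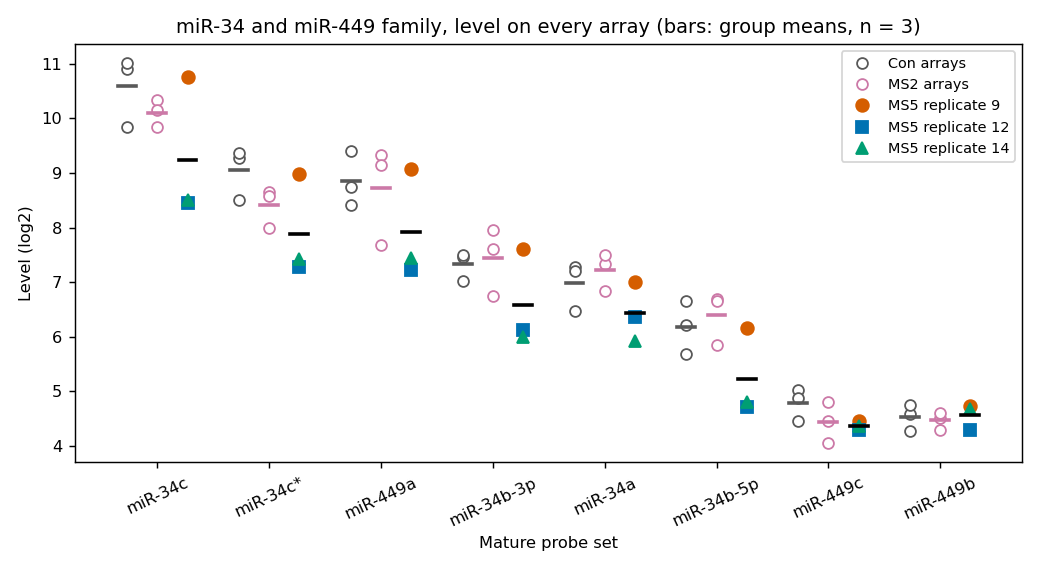
Level (log2) of the 8 mature probe sets of the miR-34 and miR-449 family on all 9 miR arrays, with bars at the group means (n = 3). Levels are comparable between arrays for 1 probe set, not between probe sets. For the 6 probe sets on the left MS5 replicates 12 and 14 lie below all control arrays, and MS5 replicate 9 lies among them or just above. miR-449c and miR-449b stay between 4.05 and 5.03.

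miR-204 and miR-448 had the same split in a sharper form. miR-204 stood at 6.99, 7.06 and 7.53 on control arrays and at 7.31, 5.23 and 5.37 on MS5 replicates 9, 12 and 14. Its fold change (log2) was -1.22 ± 0.54 (SE; limma adjusted p = 0.577; exact permutation p = 0.3). miR-448, which fell most of all probe sets, stood at 7.16, 6.76 and 7.61 in controls and at 7.25, 4.81 and 4.71 in MS5, a fold change of -1.59 ± 0.59 (SE; limma adjusted p = 0.509; exact permutation p = 0.3). On the arrays where it was low it was close to the median of all probe sets, 4.19 on replicate 14. miR-211, which shares the miR-204 seed, was between 4.01 and 4.47 on these 6 arrays and differed by -0.20 (limma adjusted p = 0.704). These values are near the array medians, so a fall of miR-211 could hardly have been seen.

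The probe sets of the precursors moved less than the mature strands. The mir-204 hairpin probe set was at 6.35, 5.92 and 6.09 in controls and at 5.93, 5.84 and 5.51 in MS5, a difference of -0.36 (limma adjusted p = 0.509), and a second mir-204 hairpin probe set differed by -0.12. The mir-448 hairpin was between 4.15 and 4.53 on all 6 arrays, near the array medians, where background limits the size of a fall. No hairpin of the 14 miRs passed the threshold, as was the case for all 690 hairpin probe sets. Of these 690, 14 had a mean level of at least 6. The hairpin values therefore do not show that the precursors were unchanged.

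Both arms of miR-764, the second precursor inside Htr2c on the arrays, fell as well. Thus 3 of 3 mature probe sets from this gene fell, where 1.52% of all mature probe sets fell. The miR-764 arms come from 1 precursor and had low means over the 9 miR arrays, 4.79 for the 3p arm and 5.30 for the 5p arm. miR-764-3p was at 5.27, 4.80 and 5.4 in controls and at 4.78, 4.00 and 4.39 in MS5, with a fold change (log2) of -0.77 ± 0.20 (SE; limma adjusted p = 0.428). miR-764-5p was at 5.66, 5.31 and 5.8 against 5.27, 4.91 and 4.76, with a fold change of -0.61 ± 0.19 (SE; limma adjusted p = 0.443). All 3 MS5 arrays lay below all 3 controls for both arms, but for replicate 9 the gap to the lowest control was under 0.05 log2 units, less than the gaps among the controls themselves.

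Leaving out MS5 replicate 9 raised the number of probe sets past the threshold to 23 (1.63%), 15 lower (1.06%) and 8 higher, with 13 of the 14 among them, and miR-2135 was lost at -0.40. In that fit 6 of the 8 probe sets of the miR-34 and miR-449 family fell, adding miR-34a at -0.84, miR-34b-3p at -1.27 and miR-449a at -1.52. miR-34c reached -2.11, miR-204 -1.89 and miR-448 -2.42. miR-448 was then the single probe set with a limma adjusted p under 0.05, at 0.0175, and the mir-34c hairpin passed at -0.76. Without MS5 replicate 12 or without replicate 14, none of the 5 miRs of this pattern passed, with miR-448 at -1.20 and -1.15 and miR-34c at -0.96 and -0.98. They also failed when control replicate 16 or 18 was left out, so these calls rested on few arrays.

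In the second pattern the 3 MS5 arrays moved in the same direction, though not always equally far. At miR-574-3p, replicates 9, 12 and 14 differed from the control mean by -0.37, -0.87 and -0.89, and at miR-455 by -0.40, -0.75 and -0.93. miR-574-3p fell from 8.51, 8.24 and 8.42 in controls to 8.02, 7.53 and 7.51 in MS5, a fold change (log2) of -0.71 ± 0.15 (SE; limma adjusted p = 0.428; exact permutation p = 0.1). Every MS5 array was below every control array, and the call held in all 15 fits that were run, between -0.88 and -0.62. The 5p arm of miR-574 was at 8.25, 7.99 and 8.06 against 7.76, 7.57 and 8.15, overlapping the controls, with a difference of -0.27 (limma adjusted p = 0.698).

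miR-455 and miR-214, known from cartilage and other mesenchymal tissue, fell by similar amounts. miR-455 went from 8.89, 8.50 and 8.95 to 8.38, 8.03 and 7.86, a fold change of -0.69 ± 0.18 (SE; limma adjusted p = 0.428), and its star strand differed by -0.07. miR-214 went from 6.95, 6.95 and 7.28 to 6.51, 6.59 and 6.03, a fold change of -0.68 ± 0.19 (SE; limma adjusted p = 0.428), and its star strand differed by -0.04. The star strands stood at 4.06 to 4.34 on the control and MS5 arrays, near the array medians, where background limits the size of a fall. For miR-455 and miR-214, all MS5 arrays were below all controls. The lone exceptions to their calls were fits without MS5 replicate 14 (-0.58 and -0.51) and, for miR-214, without control replicate 18 (-0.57). In the list of 35 mature probe sets of mesenchymal miRs these 3 were the ones that fell, where 1.52% of all mature probe sets fell. In that list 0 rose, and the median was -0.02.

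miR-2135 fell by 0.69 (log2; SE 0.25; limma adjusted p = 0.474) with yet another order of arrays. It was at 9.81, 9.42 and 9.64 in controls and at 8.34, 8.94 and 9.51 in MS5, so replicate 9 was lowest and replicate 14 lay among the controls. Its call ended without MS5 replicate 9, without control replicate 16 and without control replicate 18.

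The remaining calls were rises. miR-1839-3p was at 5.33, 5.16 and 5.23 in controls and at 6.03, 6.02 and 6.05 in MS5. The MS5 arrays differed from each other by less than 0.05 log2 units and stood far above the controls, with a fold change (log2) of 0.79 ± 0.11 (SE), the smallest adjusted p of all probe sets (limma adjusted p = 0.0702) and a call in all 14 fits that kept it, between 0.75 and 0.84. The other arm, miR-1839-5p, differed by 0.16 (limma adjusted p = 0.888) and the hairpin by 0.11. The study followed its array calls by RT-PCR and names miR-204, miR-448, miR-455 and miR-574 as borne out. miR-1839, miR-34c, miR-34c*, miR-214, miR-153 and miR-1983 were assayed too and are not among those it names.

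miR-153, a miR of neurons that targets synaptic messages, was at 6.13, 5.82 and 5.57 in controls and at 6.36, 6.20 and 6.97 in MS5. All MS5 arrays were above all controls, though replicate 12 only narrowly, and the fold change was 0.67 ± 0.25 (SE; limma adjusted p = 0.509). miR-1983 was at 6.48, 6.90 and 6.30 against 6.98, 7.22 and 7.33, a fold change of 0.61 ± 0.17 (SE; limma adjusted p = 0.428). When arrays were dropped singly, 3 of 6 fits lost each of these calls, at 0.44 for miR-153 and 0.54 for miR-1983 without MS5 replicate 14. The hairpins of miR-153 and miR-1983 differed by 0.10 and 0.13.

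Below the fold limit, the smallest p belonged to the star strand of miR-31, at 4.63, 4.67 and 4.59 in controls and 5.15, 5.31 and 5.15 in MS5, with a difference of 0.57 (limma adjusted p = 0.348). The next were miR-542-5p at -0.37, miR-30c at 0.39, the hairpin mir-465c-2_s at -0.41 and miR-17* at -0.38, each with a limma adjusted p of 0.428. For all of these the MS5 and control arrays did not overlap, as was the case for 12.3% of all probe sets.

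Among the neuron-enriched miRs, 1 of 40 mature probe sets rose (miR-153) and 0 fell, where 1.94% of all mature probe sets passed. The median difference was 0.06 (log2). With no fold limit, 8 of the 40 were higher at an unadjusted p under 0.05 and 0 were lower, where 5.26% of all mature probe sets were higher and 5.96% lower. They were miR-132, miR-153, miR-181c, miR-29a, miR-384-5p, miR-410, the star strand of miR-433 and miR-495. miR-132, which neuronal activity is known to induce, was at 11.02, 11.04 and 10.76 in controls and at 11.29, 11.23 and 11.36 in MS5, a difference of 0.36 (limma adjusted p = 0.467). miR-29a, which is known to rise as neurons mature, was at 7.89, 7.91 and 7.78 against 8.43, 8.21 and 8.44, a difference of 0.50 (limma adjusted p = 0.512). The abundant miR-124, miR-125b-5p and miR-138 differed by 0.02, 0.15 and -0.23 with limma adjusted p of 0.978, 0.727 and 0.727.

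The miRs of the imprinted Dlk1-Dio3 cluster are a large group transcribed from the maternal chromosome and expressed in neurons. They gave 0 probe sets past the threshold among 74, where 1.94% of all mature probe sets passed, and a median of 0.08. At an unadjusted p under 0.05, 9 were higher and 0 lower, where 5.26% of all mature probe sets were higher and 5.96% lower. Several of them (miR-410, miR-433* and miR-495) are also on the neuron list, so the lists are not independent. Of this cluster, miR-434-3p was at 9.18, 9.42 and 9.32 in controls and at 9.51, 9.83 and 10.22 in MS5, a difference of 0.55 (limma adjusted p = 0.443). Without MS5 replicate 9 it passed at 0.72, as did miR-411* at 0.66. The most abundant members, miR-127, miR-487b and miR-541, differed by -0.07, 0.28 and -0.11.

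The miR-17-92 cluster and its paralogs, known from dividing progenitors, had 0 of 22 past the threshold, where 1.94% of all mature probe sets passed. Their median was -0.06. At an unadjusted p under 0.05, 0 were higher and 4 lower, where 5.26% of all mature probe sets were higher and 5.96% lower. The 4 lower ones were miR-17*, miR-20a*, miR-92b and miR-93. miR-17* was at 8.85, 8.79 and 8.76 in controls and at 8.41, 8.41 and 8.44 in MS5, with little spread in either group. miR-93 was at 11.39, 11.33 and 11.41 against 11.29, 10.95 and 11.11. The abundant miR-17 differed by -0.18 and miR-20a by -0.03.

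The remaining lists gave no rise or fall. Of all mature probe sets 1.94% passed, so a count of 0 in such short lists does not show that these miRs were unaffected. The let-7 family had 0 of 17 past the threshold and a median of 0.04, with let-7b, let-7c and let-7d at -0.04, 0.05 and 0.00. The miRs that the study's introduction ties to opioids had 0 of 24, with let-7i higher by 0.29 and miR-181b lower by 0.16 at limma adjusted p of 0.443 and 0.573. Of the 12 activity-regulated probe sets 0 passed, and miR-132, miR-29a and miR-146b were the 3 with an unadjusted p under 0.05. All of these were higher, beside 5.26% of all mature probe sets. Of the 11 probe sets of hypoxia miRs 0 passed. miR-210, the miR most strongly tied to low oxygen, was at 8.67, 8.28 and 8.67 in controls and at 8.41, 7.87 and 7.99 in MS5, a difference of -0.45 (limma adjusted p = 0.570), and -0.61 and past the threshold without MS5 replicate 9.

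Lists for other cell types also gave 0 past the threshold, over 23 probe sets for oligodendrocytes and astrocytes (median -0.00), 15 for microglia and other leukocytes (median 0.01), 20 for blood vessels and red cells (median -0.03) and 16 for the miR-200 and miR-183 clusters of epithelia (median 0.04). The muscle-type miR-145 was at 10.25, 10.49 and 10.23 in controls and at 9.94, 9.87 and 9.93 in MS5, a difference of -0.41 (limma adjusted p = 0.474). The epithelial miRs had control means of 3.84 to 4.74, near the array medians. miR-203 among them was at 4.17, 4.95 and 4.39 against 4.86, 4.98 and 5.34, overlapping the controls. The 13 probe sets for liver, heart, muscle and pancreas gave 0 past the threshold. The counts of 0 in these lists stand beside 1.94% of all mature probe sets.

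Both doses were compared with the same 3 control arrays, so their differences from controls are not independent and are given side by side only. MS2 gave 42 probe sets past the threshold against controls (2.97%) and 16 with an adjusted p under 0.05 (1.13%). The fold change (log2) against controls was -0.89 for MS2 and -0.71 for MS5 at miR-574-3p, -0.78 and -0.68 at miR-214 and -0.53 and -0.69 at miR-455. Among the rises it was 0.74 for MS2 and 0.79 for MS5 at miR-1839-3p, 0.70 and 0.67 at miR-153 and 0.67 and 0.61 at miR-1983. Tested directly, MS5 minus MS2 was 0.18 for miR-574-3p (95% limma interval -0.16 to 0.52), 0.09 for miR-214 (-0.33 to 0.51), -0.16 for miR-455 (-0.57 to 0.25), 0.05 for miR-1839-3p (-0.20 to 0.30), -0.03 for miR-153 (-0.59 to 0.52) and -0.05 for miR-1983 (-0.43 to 0.33). No difference between the doses was detected at these miRs, and the intervals admit ones of up to 0.59 in size.

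At miR-448, miR-204 and miR-34b-5p the doses did differ past the threshold. miR-448 was at 7.52, 6.92 and 7.52 on the MS2 arrays, within the control range, and MS5 minus MS2 was -1.73 (95% limma interval -3.06 to -0.40; limma adjusted p = 0.599). miR-204 was at 8.30, 6.84 and 7.70 in MS2, and MS5 minus MS2 was -1.64 (-2.86 to -0.43; limma adjusted p = 0.557). miR-34b-5p was at 6.68, 5.85 and 6.66 in MS2, with a difference of -1.17 (-2.09 to -0.26; limma adjusted p = 0.599). Over all probe sets 6 (0.425%) passed between the doses, limma called 0 after adjustment, and 99 (7.01%) had an unadjusted p under 0.05. Without MS5 replicate 12, and also without replicate 14, 0 of the 14 miRs passed between the doses, and 6 of them did without replicate 9.

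At miR-34c and miR-34c* the MS2 means lay between those of controls and MS5, but the single arrays had no such order, as MS5 replicate 9 was above every MS2 array. miR-34c was at 10.33, 9.83 and 10.16 in MS2, and MS5 minus MS2 was -0.87 (95% limma interval -2.15 to 0.41), while miR-34c* was at 8.65, 8.00 and 8.58, with -0.52 (-1.48 to 0.44). Neither difference between the doses passed. For miR-764-3p and miR-764-5p MS5 minus MS2 was -0.43 (-0.89 to 0.02) and -0.35 (-0.79 to 0.08).

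**Figure D4:**
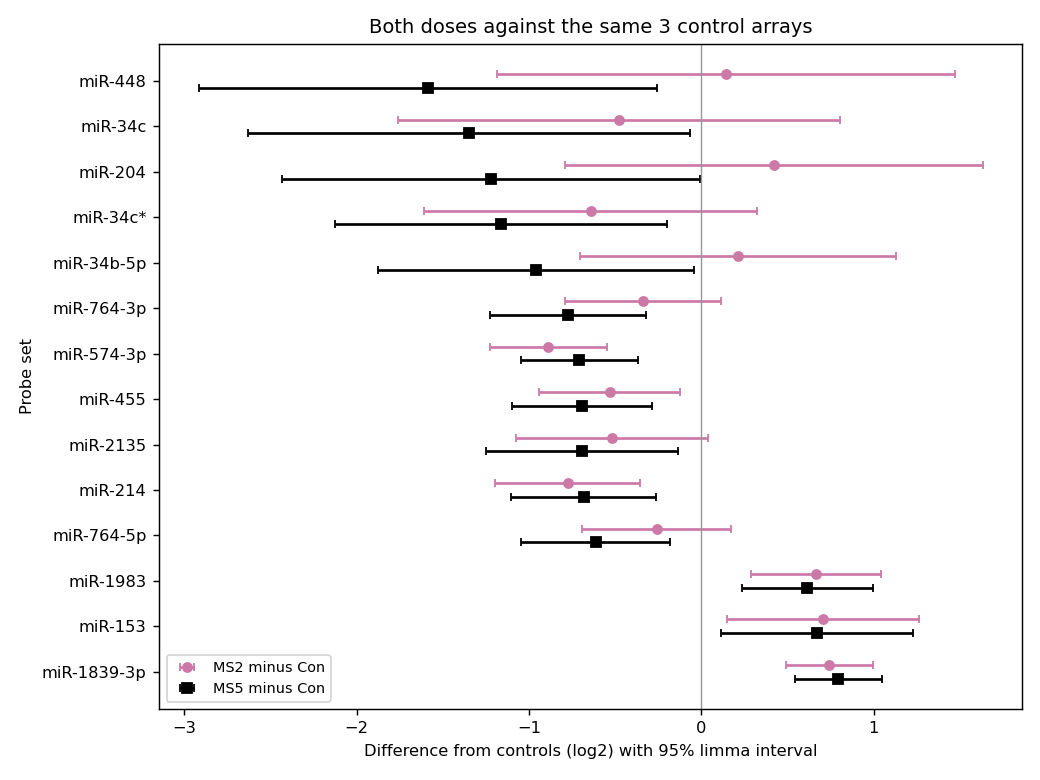
Difference from the same 3 control arrays (log2) for MS2 (circles) and MS5 (squares) at the 14 probe sets, with 95% limma intervals. The comparisons share their controls. The points are farthest apart for miR-448 (0.14 and -1.59), miR-204 (0.42 and -1.22) and miR-34b-5p (0.21 and -0.96).

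Markers of cell types that border the hippocampus were read on the mRNA arrays that carry the same numbers. The 26 choroid plexus markers were low on MS5 number 14, with a median of -2.76 (log2) from the control mean and 25 of 26 below all 3 controls, and on number 9, with -2.12 and 26 of 26, but not on number 12, with -0.28 and 8 of 26. Their summed intensity was 323718 to 431761 in controls and 94250, 348251 and 28589 on MS5 numbers 9, 12 and 14. Ttr, the transthyretin gene that defines this epithelium, was at 18.15, 18.13 and 17.88 in controls and at 15.93, 17.92 and 12.84 on MS5 numbers 9, 12 and 14, so it was well above background on every one of these arrays. The miR arrays had another order: miR-204, miR-448 and the miR-34 family were low on numbers 12 and 14 and within the control range on number 9. The part of these cells in the miR differences was not tested.

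The 14 markers of ependymal and other ciliated cells, the class in which the miR-34 and miR-449 family is best known, differed from the control mean by medians of -1.12, 0.23 and -0.73 on MS5 numbers 9, 12 and 14. On number 9, 12 of 14 lay below all 3 controls, on number 12 it was 0 and on number 14 it was 9. Their summed intensity was 92707 to 119837 in controls and 101774, 147487 and 122641 on these MS5 arrays, most of it from Mcidas, and without Mcidas it was 19381 to 34213 in controls and 16921, 34985 and 20365. Foxj1, the regulator of motile cilia, was at 11.22, 11.11 and 10.14 in controls and at 9.56, 11.11 and 9.89. Foxj1 was thus within the control range on number 12 and below it on numbers 9 and 14. By contrast, miR-34c was within its control range on number 9 and below it on numbers 12 and 14. The 13 markers of meninges and fibroblasts had medians of -0.10, -0.26 and -0.77, with 4, 12 and 11 of 13 below all controls and summed intensities of 63128 to 78381 in controls and 70447, 50607 and 45027 in MS5. The sum of this list thus had the split of the first miR pattern, within the control range on number 9 and below it on numbers 12 and 14. That sum leans on its bright member Dcn, and it was not repeated without Dcn. Dcn was at 14.16, 13.97 and 14.59 in controls and at 14.67, 12.93 and 14.04 on MS5 numbers 9, 12 and 14. By its medians, number 12 was closer to number 9 than to number 14. The 11 markers of hippocampal neurons had medians of -0.29, -0.15 and -0.18 and were well above background on every array. The 9 oligodendrocyte markers had medians of -0.27, 0.48 and 0.04, and the 5 blood markers of -0.25, 0.11 and -0.82.

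The summed intensity of the 12 markers of hypothalamus and thalamus split between the same numbers in the other direction, at 7391 to 9464 in controls and 7383, 16025 and 16025 on MS5 numbers 9, 12 and 14. Its medians were -0.07, 0.16 and 0.17, with 4, 6 and 7 of 12 markers above all 3 controls, and 10 of 12 were well above background on every array, so the split came from a few of its members. Beside Avp, given above, these were Oxt and Six3, named here after their values were seen. Oxt, the oxytocin gene, was at 7.41, 7.86 and 7.15 in controls and at 7.40, 9.89 and 11.62 on MS5 numbers 9, 12 and 14. Six3, a regulator of the anterior forebrain, was at 8.32, 8.93 and 7.26 against 6.90, 10.14 and 9.99. For all of these genes numbers 12 and 14 were above every control and number 9 was not, while miR-34c, miR-204 and miR-448 were below every control on numbers 12 and 14 and not on number 9. The thyrotropin-releasing hormone gene Trh was above the controls on all 3 MS5 numbers, at 9.05, 9.16 and 11.08 against 7.62, 8.32 and 7.23. The part of any of these cell types or tissues was not tested.

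**Figure D5:**
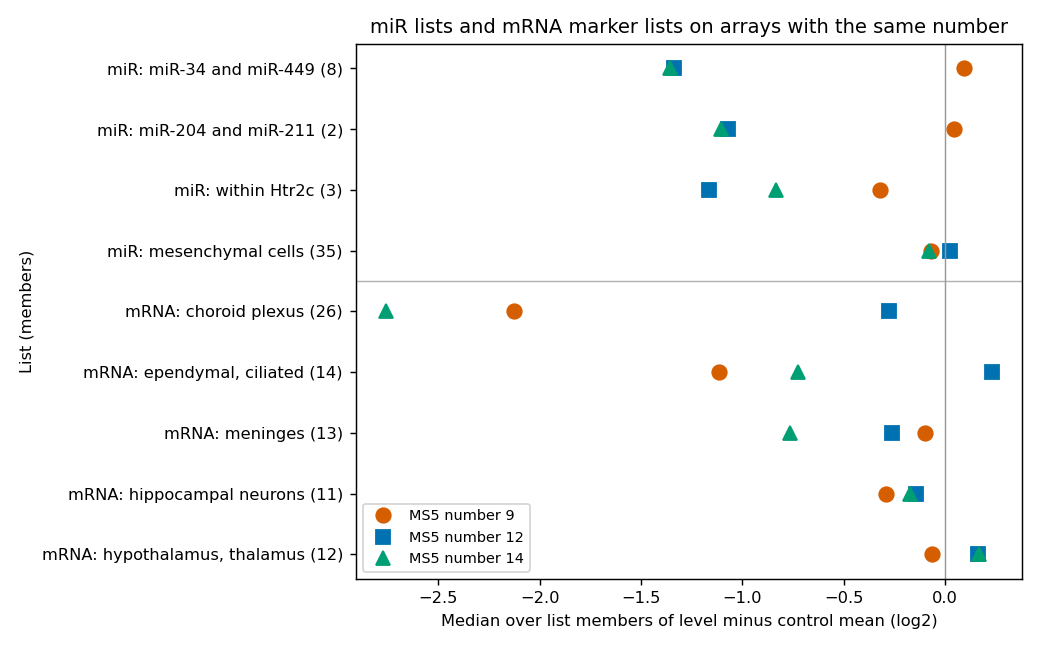
Median over the members of a list of the level minus the control mean (log2), for 4 miR lists (upper rows, miR arrays) and 5 mRNA marker lists (lower rows, mRNA arrays with the same numbers). Numbers 12 and 14 are low and number 9 is near 0 for the miR-34 and miR-204 lists, whereas numbers 9 and 14 are low and number 12 is at -0.28 for choroid plexus markers. The medians of the hypothalamus and thalamus list are 0.16 and 0.17 on numbers 12 and 14 and -0.07 on number 9.

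The genes whose spans hold these hairpins gave a mixed picture. Trpm3, which holds Mir204 and is itself on the choroid plexus list, was at 10.71, 10.52 and 9.96 in controls and at 7.56, 9.86 and 7.09 on MS5 numbers 9, 12 and 14, whereas miR-204 was within the control range on number 9 and low on number 12. Htr2c, which holds Mir448 and Mir764, was at 12.76, 12.95 and 12.34 in controls and at 12.04, 12.49 and 12.09 in MS5, a smaller gap than that of miR-448 on numbers 12 and 14. For the miRs that shifted on all MS5 arrays, Col27a1, which holds Mir455, was at 7.93, 8.13 and 8.12 against 7.61, 7.70 and 7.39, and Fam114a1, one of the genes that hold Mir574, was at 9.26, 9.34 and 9.11 against 8.93, 8.98 and 8.71. In both, all 3 MS5 arrays were below all 3 controls, as was the case for 5.91% of the mRNA probes well above background on these 6 arrays. Ptprn2, which holds Mir153, was at 8.67, 8.75 and 8.49 in controls and at 9.15, 8.79 and 9.06 in MS5, above the controls in all 3, as were 6.26% of those probes. Dnm3os, which holds Mir214, was at 6.10, 6.06 and 6.20 against 6.38, 6.16 and 6.17 and overlapped the controls. Dnm3, whose span also holds Mir214, was at 11.30, 11.30 and 11.49 against 11.67, 11.32 and 11.71. No test was run on these levels.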

How the data were processed

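Hippocampal RNA of 9 pups was hybridized to Affymetrix miR arrays, 3 arrays per group. The authors background corrected the probe signals, stabilized their variance, quantile normalized them at the probe level and summarized them by median polish with the miR QCTool (named RMA in the submitters' processing notes; version not given in the sources used here), and deposited log2 values. Quantile normalization holds the array distributions alike, so levels are relative to the other probe sets. Detection calls were not used here. The deposited mRNA files hold scanner intensity, and the authors' log2 table of the same arrays was an alternative.

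R 4.3.3 and limma 3.58.1 were used, and figures were drawn with Python and matplotlib. All 1412 mouse probe sets of the 9 arrays were fitted by group (lmFit, eBayes). Probe sets passed with a fold change over 1.5 and a raw p below 0.05, and p-values were adjusted by Benjamini-Hochberg across the 1412. Exact permutation tests were two-sided over 20 assignments. mRNA intensity was adjusted with normexp (offset 50) and quantile normalized to log2, spots of a probe were averaged, and each marker gene was read on its brightest probe, from the older catalogue probes where it had any. The number of arrays limits the precision. The fit was tested on simulated data.

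Named miRs were all probe sets past the threshold, other arms and hairpins of their precursors, the 3 highest control means of each list, the 5 smallest p below the fold limit, the miR-34, miR-449 and Htr2c members and the 10 highest control means. Others are named because they had an unadjusted p under 0.05 within a list. The comparison and the 16 lists were chosen with earlier results of these data known, and list counts are descriptions without a test. RefSeq held 15 of 16 precursors looked up. Alternatives were the 6 arrays alone, median centring, further quantile normalization, array weights, mean levels of at least 5 or 6 and mature probe sets alone. Further ones were a variance prior that follows the mean, Storey's q-value and leaving out each control or MS5 array in turn. No MS2 array was left out, although MS2 replicate 4 had the lowest array weight, 0.44.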

Additional observations from a re-analysis of the deposited data

Results flagged for a closer look

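Within the 5 mRNA arrays of a group, the highest or lowest value stood unusually far from the nearest other at 6 readings of sex-linked genes, a gap that chance gives in about 1 of 20 groups. On MS5 replicate 9, Xist was at 11.34 (log2), Ddx3y at 6.24, Eif2s3y at 6.77, Kdm5d at 5.87 and Uty at 5.81, so 5 of the 6 readings were from this array. On the 14 other arrays Eif2s3y was at 12.11 or above, Kdm5d at 6.43 or above and Uty at 7.03 or above. On control replicate 19, Xist was at 6.08, close to the mean of 5.98 on the arrays other than MS5 replicate 9.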

How the results depend on the processing

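Leaving out 1 control or MS5 array moved the counts most. Fits without an MS2 array were not run. The number of probe sets past the threshold lay between 6 and 24, with 2 to 9 higher and 3 to 15 lower, and 4 to 13 of the 14 remained. It was 6 without control replicate 16, 6 without control replicate 18, 24 without control replicate 17 and 23 without MS5 replicate 9. The number with an adjusted p under 0.05 was 0 to 1, and the number of the 14 that passed between the doses was 0 to 6. With the control and MS5 arrays alone 5 were higher, 1 had an adjusted p under 0.05, and miR-34c no longer passed. Further quantile normalization gave 6 higher. With mean levels of at least 6 there were 9 past the threshold, 7 of them lower, all 9 among the 14. None of the 14 changed direction under any alternative that was run. Of 98 results, 23 changed sign under at least 1 alternative, none of them a probe set past the threshold and the largest at 0.29 in size. With further quantile normalization miR-20a went from -0.03 to 0.04 and miR-16 from 0.03 to -0.06. miR-574-3p and miR-1839-3p passed in every fit that kept them, and miR-204 in 7 of 15. No paired analysis was possible because the control and MS5 arrays share no replicate number. Where the level was near the array medians, background limits the size of a fall.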

Other observations

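Of the probe sets that differed by more than 1.5-fold between MS5 and controls, 5 did not reach an unadjusted p of 0.05. Besides miR-34b-3p and miR-449a these were miR-344, miR-383 and miR-489. miR-344 was at 8.85, 8.51 and 8.44 (log2) in controls and at 9.72, 8.92 and 9.93 in MS5, above all controls on every MS5 array, with a difference of 0.93 and a standard error of 0.49 (limma adjusted p = 0.704). On the MS2 arrays it was at 8.63, 10.65 and 8.75, so MS2 replicate 4 was the highest of all. miR-383 had the same order, at 8.03, 11.05 and 8.60 in MS2 and 9.69, 9.25 and 10.07 in MS5. miR-489 was at 6.30 on MS5 replicate 14 and between 4.07 and 4.79 on the other arrays of MS5 and the controls.

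Among the 6 probe sets that passed between the doses, 2 were higher in MS5 than in MS2. miR-139-3p was at 8.45, 8.07 and 8.00 in controls, at 7.29, 6.82 and 7.36 in MS2 and at 8.08, 7.92 and 7.98 in MS5. MS5 minus MS2 was 0.84 (limma adjusted p = 0.330), and MS2 was the group that lay apart from controls. miR-187 was at 10.21, 8.82 and 10.14 in MS2 and at 10.89, 10.13 and 10.51 in MS5, a difference of 0.79 with MS2 replicate 4 the lowest.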
